A study of Homo sapiens with 6 samples.

Results

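Strongly G-rich sites were taken as the PAR-CLIP sites whose reported sequence was at least 15 nt long and at least 50% G. They numbered 283989 of 10639684 sites over 6 libraries. The rule used only sequence and length, and not read counts, gene regions or recurrence between libraries. A floor on G limits how many T a site can hold, so conversions, which need a T, are not independent of the rule and are compared below at the same number of T. A site is the stretch of genome covered by overlapping reads of a library on a single strand.

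All libraries came from HEK293 cells, a human embryonic kidney line with stable, doxycycline-inducible expression of FLAG-tagged HuR or of FLAG-tagged green fluorescent protein (GFP). Cells were given doxycycline and the nucleoside analog 4-thiouridine (4SU) overnight and irradiated at 365 nm. For PAR-CLIP, RNase T1 was applied in a first step and again after immunoprecipitation. Background was represented by gel slices of a FLAG-GFP immunoprecipitation at about 20, 35 and 45 kDa (G20, G35 and G45), each sequenced as 1 library. HuR was sequenced as 2 replicates. Total was 1 library of RNA from lysates of cells given 4SU and irradiated, without immunoprecipitation. These lysates were digested with proteinase K and depleted of ribosomal RNA, and only then was the RNA partially digested with RNase T1. The transgenes were overexpressed and the line holds its own HuR as well, which limits these cells as a model. A library held between 6187300 and 38644636 reads at sites. Each slice and Total was a single library, and no test between groups was made. Shares are given with 95% Wilson intervals, which cover counting error only, since reads carried no molecular identifiers.

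Runs of G in RNA can pair through their Hoogsteen edges and stack into G-quadruplexes, and many nuclear RNA-binding proteins favor G-rich stretches. HuR, in contrast, is known for binding U- and AU-rich RNA, largely in introns and 3'UTRs. RNase T1 cuts RNA after G, so a G-rich stretch offers many cleavage points. In PAR-CLIP, a 4SU crosslinked to protein is read as a T-to-C conversion, which a stretch poor in T has few chances to show.

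To show what such sites look like, sequences were drawn from stretches in coding regions or UTRs with reads in all 3 slices and 10 or more reads in Total. These were chosen after their values were seen. Of 183 such stretches of at most 30 nt, the pair with the most Total reads is given for each region. Sequences are 5′ to 3′ on the transcribed strand of hg19 as deposited, and capitals mark runs of 3 or more G.
RPLP1 5'UTR, chr15:69745197-69745224 (+): aggaagctaaggctgcgttGGGGtgagg
KDM1A 5'UTR, chr1:23346069-23346083 (+): tcggcggcccggcgg
OAZ1 coding, chr19:2273078-2273104 (+): agagagtcttcGGGagaggaggaggag
RPS19 coding, chr19:42373121-42373146 (+): tacctccGGGGtggcgctGGGGttgg
MAZ 3'UTR, chr16:29822273-29822293 (+): cttcctGGGGGcGGGGGaatg
MBD3 3'UTR, chr19:1577672-1577697 (-): tctgctgtGGGGGGcatgcaggacgg

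All 4 stretches of the set that held 4 runs of 3 or more G, separated by 1 to 7 nt, are given as well. This pattern is the usual sequence signature of a G-quadruplex, whose formation was not measured here.
MDK 3'UTR, chr11:46405222-46405246 (+): GGGaGGGacaaGGGattctGGGaag
UBA1 coding, chrX:47062988-47063012 (+): attGGGctGGGctgcGGGGaGGGtg
THRAP3 3'UTR, chr1:36769892-36769914 (+): tGGGGGcaGGGGtaGGGcGGGag
STK35 3'UTR, chr20:2125940-2125966 (+): tataGGGccactGGGGaGGGGGaaGGG

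The share of sites that were G-rich was higher in each background slice than in HuR or Total. In G20, 76620 of 706883 sites were G-rich, or 10.8% (95% interval 10.8 to 10.9). In G35 the share was 7.96% (7.85 to 8.06), from 20635 of 259337 sites. In G45 it was 6.31% (6.23 to 6.39), from 23956 of 379718 sites. HuR replicates 1 and 2 held 46323 and 78146 G-rich sites, shares of 1.92% and 1.94% (mean 1.93% ± 0.0146, SD, n = 2). Total held 38309 G-rich sites of 2857291, or 1.34% (1.33 to 1.35). The slice shares were therefore 8.08, 5.93 and 4.71 times that of Total in G20, G35 and G45, and the HuR replicates 1.43 and 1.45 times. The intervals of the 3 slice shares overlapped neither with each other nor with those of HuR and Total. With every library thinned to the reads of the smallest, the shares were 10.7% in G20, 7.96% in G35, 6.21% in G45, 1.74% in HuR (mean) and 1.11% in Total.

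The order of libraries was different when reads were counted instead of sites. G-rich sites held 5.12% of reads in G35, 3.46% in G45 and 1.02% in G20, against 0.273% in Total. HuR replicates differed here, with 2.84% and 1.40% (mean 2.12% ± 1.02, SD, n = 2). G20 thus ranked first by sites but was below G35, G45 and both HuR replicates by reads. Leaving out the 10 most-read sites of any kind from each library gave 4.32% (G20), 6.38% (G35), 4.39% (G45), 2.19% (HuR mean) and 0.717% (Total), so that G20 then was above the HuR mean. Restricted to sites that overlapped a Total site on the same strand, G-rich sites held 0.624%, 3.25% and 2.34% of the reads of G20, G35 and G45. The HuR mean in this setting was 1.84%, above G20.

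**Figure D1:**
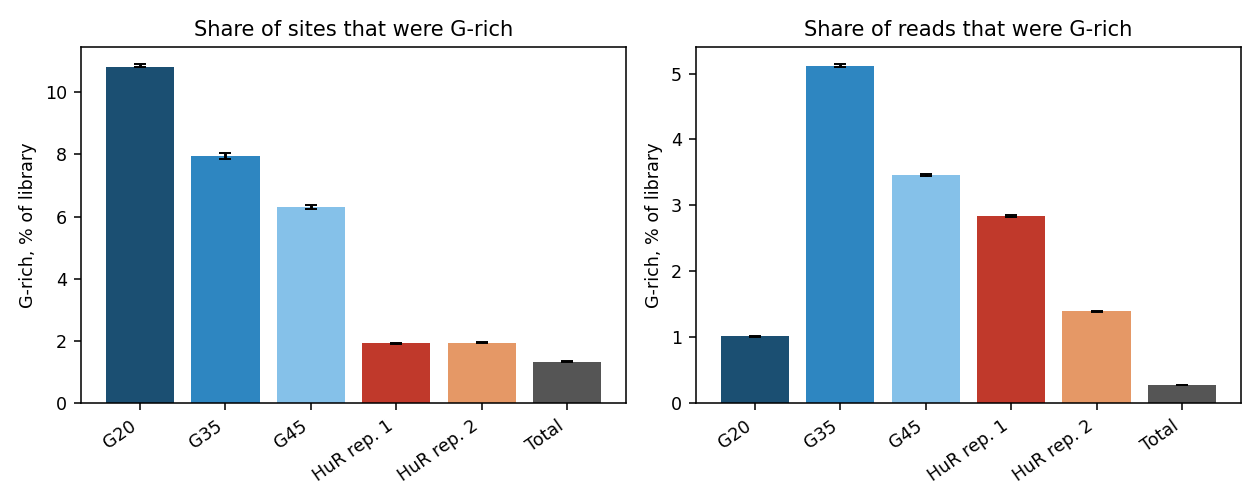
Bars give the percent of all sites (left) and of all reads (right) of each library that were at G-rich sites, with 95% Wilson intervals as error bars. Slices reach 6.31% to 10.8% of sites, against 1.92% and 1.94% for HuR and 1.34% for Total, while by reads G35 is highest at 5.12%.

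The excess of G was not a step at the threshold. Sites of 45% to under 50% G, just outside it, made up 6.0%, 4.30% and 3.71% of sites in G20, G35 and G45, and 1.45%, 1.45% and 1.10% in HuR replicates 1 and 2 and Total. Sites of 50% to under 55% G, just inside it, made up 5.71%, 4.44% and 3.73% in the slices and 1.24%, 1.15% and 0.877% in the others. Strongly T-rich sites, of the same length and at least 50% T, were most frequent in HuR, with 13.2% and 22.0% of sites, followed by G45 (11%), G35 (8.37%), Total (6.30%) and G20 (3.95%). Outside G20, T-rich sites were thus more frequent than G-rich sites in each library.

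**Figure D2:**
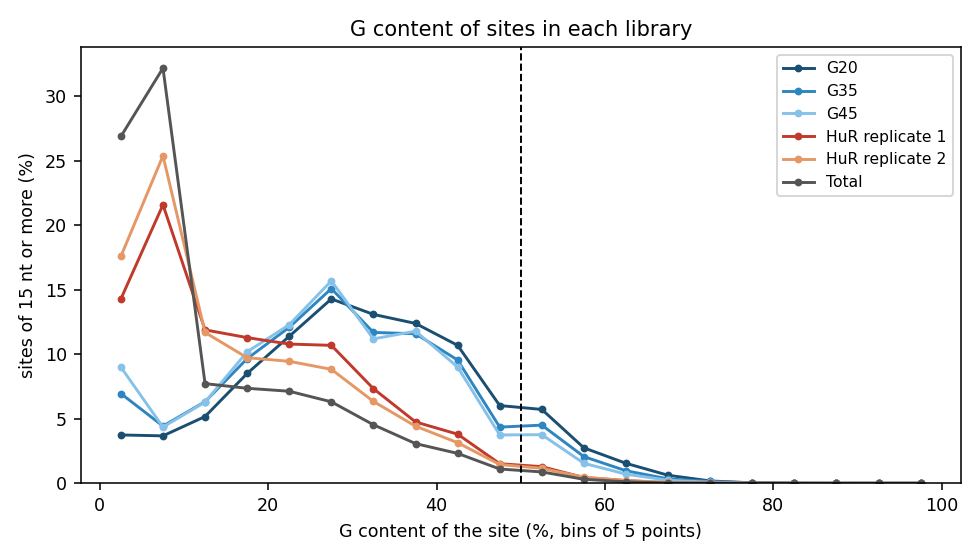
Lines give the percent of sites of 15 nt or more in each 5-point bin of G content, per library, and the dashed line marks 50% G. Slices peak between 25% and 30% G, whereas HuR and Total peak between 5% and 10% G, and the slices stay above the other libraries on both sides of the threshold.

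Most G-rich sites held a run of G. An uninterrupted run, GGGG, occurred in 71.9%, 60.8% and 56.6% of G-rich sites in G20, G35 and G45, in 57.2% and 69.7% in HuR and in 62.4% in Total. Of the other sites of 15 nt or more, 15.6%, 9.11% and 7.78% held it in the slices, 5.53% and 6.47% in HuR and 4.14% in Total. Since the rule asks for a high share of G, a higher frequency of such runs at G-rich sites follows by construction. Median lengths differed, with 24 nt in G20, 18 nt in G35, G45 and HuR replicate 1, 22 nt in HuR replicate 2 and 21 nt in Total, so motifs were also counted in sites of 20 to 29 nt alone. At that length, the pattern of 4 runs of 3 or more G occurred in 5.94% (5.70 to 6.18) of G-rich sites in G20, 4.12% (3.63 to 4.68) in G35 and 3.55% (3.09 to 4.07) in G45. It occurred in 1.62% and 3.20% in the HuR replicates and in 1.80% (1.62 to 2.0) in Total. Runs of 2 or more G in the same arrangement occurred in 68.3%, 64.6%, 60.7%, 57.7%, 62.5% and 52.5%, in the order G20, G35, G45, HuR replicates 1 and 2, and Total. Motifs were searched on the transcribed strand of the site, and GGGG matches lie within many of the quadruplex patterns.

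By region and without regard to length, the 4-run pattern was found at G-rich sites in 3'UTRs at 13.7% in G20, 10.9% in G35, 6.33% in G45, 3.75% and 9.96% in HuR, and 6.13% in Total. In coding regions it occurred in 4.57%, 1.90% and 2.26% of G-rich sites of the slices. In 5'UTRs it occurred in 11.3%, 5.92%, 6.03%, 2.72%, 7.69% and 3.5%, in the order of the libraries above. The intervals of 3'UTR and 5'UTR sites were separate in G20, G35 and Total, and overlapped in G45 (4.96 to 8.05 and 4.71 to 7.70) and in HuR replicates 1 (2.89 to 4.84 and 1.86 to 3.95) and 2 (8.91 to 11.1 and 6.55 to 9.02).

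The ends of G-rich sites followed the cleavage preference of RNase T1 to different degrees. Their last base was G in 96.0% of G-rich sites in Total, 90.8% in HuR replicate 2, 88.8% in G20, 74.1% in HuR replicate 1, 64.2% in G35 and 63.2% in G45. At least 50% of the bases are G by the rule, so these shares are not independent of it. The first base of the same sites was G in 14.1% in Total and up to 38.7% in G45. Among the other sites, G ended 95.4% in Total, 93.3% in HuR replicate 2, 87.3% in HuR replicate 1, 72% in G20, 48.2% in G35 and 45.0% in G45. The libraries thus differed in how often fragments ended after G. In Total, RNase T1 acted on RNA after protein had been digested, unlike in the other libraries. The part of digestion in the G-rich shares was not tested.

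Conversions were compared at single-read sites, where the number of converted reads is known. Of these, 19.8% (19.4 to 20.2) of G-rich sites in G20 carried a T-to-C conversion, 45.7% (44.4 to 47.0) in G35 and 41.0% (40 to 42) in G45. The shares were 50.1% and 62.3% in the HuR replicates and 11.5% (11.2 to 11.9) in Total. Other sites were converted more often in most libraries, with 36.9%, 64.0% and 59.1% in the slices, 67.0% in HuR replicate 1 and 23.5% in Total. In HuR replicate 2 the share of the other sites was 62.7%, within the interval of the G-rich sites. G-rich sites held on average 3.30 to 4.25 T per site, compared to 6.43 to 9.43 in the other sites, and between 1.22% and 4.45% of them held no T at all.

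At the same number of T, slices and HuR went different ways. With exactly 3 T, single-read G-rich sites were converted in 18.6%, 45.8% and 38.6% in G20, G35 and G45, against 25.9%, 49.4% and 47.2% for the other sites. In G35 the intervals overlapped (43.2 to 48.5 and 48.2 to 50.7). In HuR replicates 1 and 2, G-rich sites with 3 T were converted in 42.4% and 58.9%, against 36.0% and 40.7% for the other sites. In Total, the shares were 11.3% (10.5 to 12.1) and 11.8% (11.6 to 11.9), and their intervals overlapped. When the other sites were weighted to the lengths and T numbers of the G-rich sites, the difference of G-rich minus other sites was -3.54, -6.65 and -7.02 points in G20, G35 and G45 and -1.24 points in Total. It was 3.10 and 9.08 points in HuR replicates 1 and 2.

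**Figure D3:**
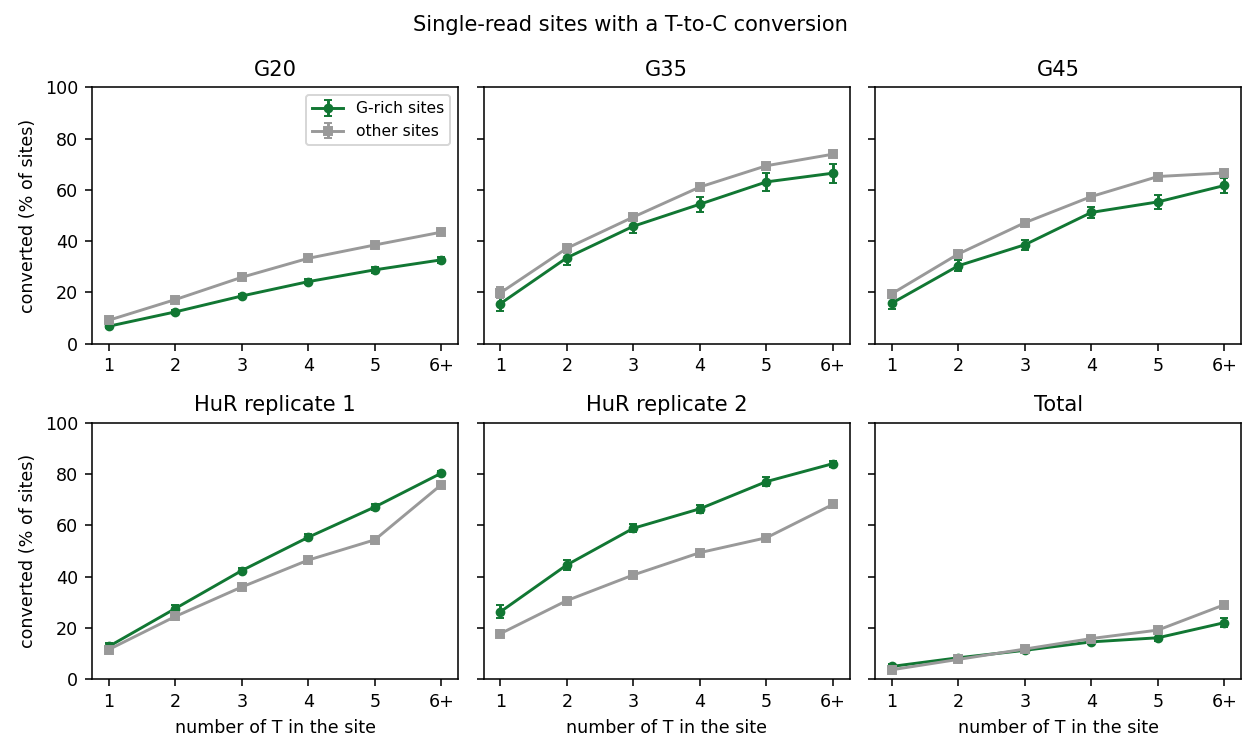
Each panel gives, for a library, the percent of single-read sites with a T-to-C conversion by the number of T in the site, for G-rich (green) and other sites (gray), with 95% Wilson intervals. Green lies below gray in G20, G35 and G45 and above it in both HuR replicates, for example 58.9% against 40.7% with 3 T in HuR replicate 2. Among these libraries, intervals overlap at 1 T in G35, G45 and HuR replicate 1, and at 2 and 3 T in G35.

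Over all G-rich sites, conversion events per 100 reads numbered 51.8 in G20, 47.6 in G35, 44.1 in G45, 30.8 and 68.3 in HuR, and 16.0 in Total. Other sites had 18.4, 62.7, 56.8, 51.4, 87.6 and 37 in the same order, so that G20 was the library in which G-rich sites had more. A read can carry more than 1 event, and a single stretch on chromosome 2 held 97969 of the 203373 events at G-rich sites of G20. Among sites with 25 or more reads and at least 1 T, G-rich sites without any conversion event made up 29.1% (26.0 to 32.3) in G20, 38.0% (34.6 to 41.5) in G35 and 36.5% (33 to 40) in G45. In HuR replicates 1 and 2 they made up 53.3% and 22.3%, and in Total 43.0% (35.9 to 50.5). Other sites of this depth lacked events less often in every library, with 14.1%, 19.8%, 19.1%, 37.1%, 3.23% and 14.1% in the same order.

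G-rich sites were distributed over all gene regions. Introns held 48.9% of them in G20, 39.1% in G35, 36.7% in G45, 47.6% and 56.0% in HuR and 45.1% in Total. Of the other sites, introns held 38.9%, 39.0%, 38.6%, 61.2%, 60.6% and 58.9% in the same order. Sites with no gene on their strand, called intergenic here, made up 26.3% in G20, 45.2% in G35, 46.3% in G45, 41.4% and 32.5% in HuR and 19.4% in Total. Other sites were intergenic in 28.5%, 46.2%, 47.8%, 29.1%, 30.7% and 21.2%. In G35 and G45 the intronic and intergenic shares of G-rich and other sites were thus close. Coding regions held 6.74%, 4.85% and 5.72% of G-rich sites in the slices, 2.34% and 2.15% in HuR and 11.6% in Total. They held 16.9%, 6.18%, 5.71%, 1.39%, 1.32% and 7.48% of the other sites. At 5 or more reads, the intronic share of G-rich sites was 17.6% in Total and 32.9% in G20, and the coding share was 26.1% and 13.7%. For the other sites of this depth, the intronic share was 44.6% in Total and 19.9% in G20, and the coding share 20.0% and 31.6%.

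The 5'UTR was the region richest in G-rich sites in each library. Among 5'UTR sites, 22.3% (21.8 to 22.8) in G20, 22.6% (21.2 to 24) in G35 and 22.3% (21.1 to 23.6) in G45 were G-rich, so the slices did not differ beyond counting error. The share was 7.04% and 10.4% in the HuR replicates and 9.11% (8.83 to 9.41) in Total. Among coding sites it was 4.65%, 6.39% and 6.34% in the slices, 2.90% and 3.12% in HuR and 2.07% in Total. Introns gave 13.3% in G20 against 8.02% and 6.02% in G35 and G45, the order of the shares over all sites. In 3'UTRs, G-rich sites were 7.84%, 7.43% and 6.12% of slice sites, 1.29% and 1.60% of HuR sites and 1.61% of Total sites. Within 500 nt of the start of a protein-coding gene on either strand, the G-rich share was 25.6%, 22.0% and 20.4% in the slices, 8.40% and 13.8% in HuR and 9.29% in Total.

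**Figure D4:**
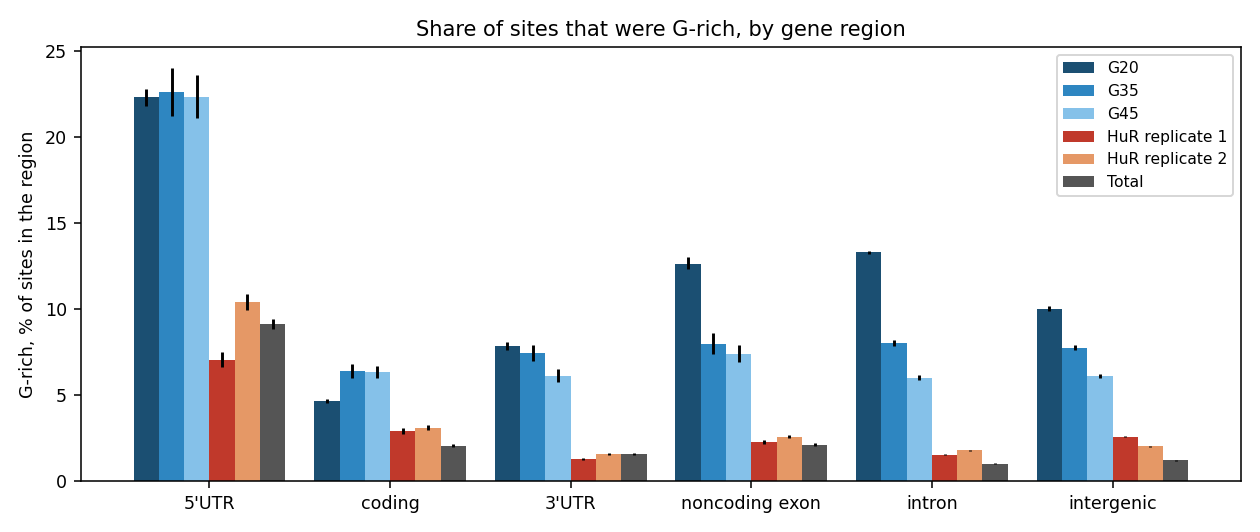
Bars give the percent of sites in each gene region that were G-rich, per library, with 95% Wilson intervals as error bars. In 5'UTRs the slices stand at 22.3% to 22.6% and the other libraries at 7.04% to 10.4%, and in each other region the slices are above HuR and Total.

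Chromosome 19, which is dense in genes and rich in GC, held 9.03% of G-rich sites in G20, 6.62% in G35, 6.44% in G45, 5.72% and 6.43% in HuR and 9.42% in Total. It held 6.25%, 3.65%, 3.37%, 2.90%, 2.69% and 3.96% of the other sites. The mitochondrial genome held between 1 and 8 G-rich sites per library. These were 0.00131%, 0.0339%, 0.0167%, 0.0108%, 0.0102% and 0.00522% of G-rich sites in the same order. Of the other sites it held 0.0426%, 0.0870%, 0.0676%, 0.0129%, 0.00663% and 0.00760%. The intervals of G-rich and other sites were separate in the slices and overlapped in HuR and Total.

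Recurrence between libraries increased steeply with reads, at G-rich and at other sites. G-rich sites formed 226350 separate stretches when merged over libraries on the same strand, of which 186713 (82.5%) were G-rich in 1 library only and 278 in all 6. Site boundaries differ between libraries, and counted by reads at any overlapping site, 149456 of these stretches (66.0%) were covered in 1 library only and 1002 in all 6. Among G-rich sites with 25 or more reads, 71.5% of those in G20, 94.0% in G35 and 97.0% in G45 overlapped a site in both other slices. Taken per slice, G20 sites of this depth overlapped G35 and G45 in 77.5% and 84.3% when G-rich, and in 84.7% and 89.7% otherwise. From G35 and G45, such shares were 95% to 98.1% for G-rich and 94.3% to 98.2% for other sites. Over all G-rich sites, 4.45%, 18.0% and 15.3% overlapped both other slices. The libraries differ in depth, and sites with 1 read made up 51.8%, 27.7% and 39.0% of G-rich sites in the slices.

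HuR sites that were G-rich coincided with background far more often than other HuR sites. In HuR replicate 1, 27.5% (27.1 to 27.9) of G-rich sites overlapped a site of at least 1 slice on the same strand, compared to 8.66% (8.62 to 8.69) of the other sites. In HuR replicate 2 the shares were 28.4% (28.0 to 28.7) and 7.19% (7.16 to 7.21). By reads, 80.7% and 57.2% of the reads at HuR G-rich sites were at sites with background, against 63.9% and 27.0% for the other sites. At HuR sites of 25 or more reads, 89.2% of G-rich and 32.1% of other sites in replicate 2 overlapped background, whereas the shares in replicate 1, 88.2% (85.8 to 90.3) and 84.4% (83.9 to 85), were close.

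**Figure D5:**
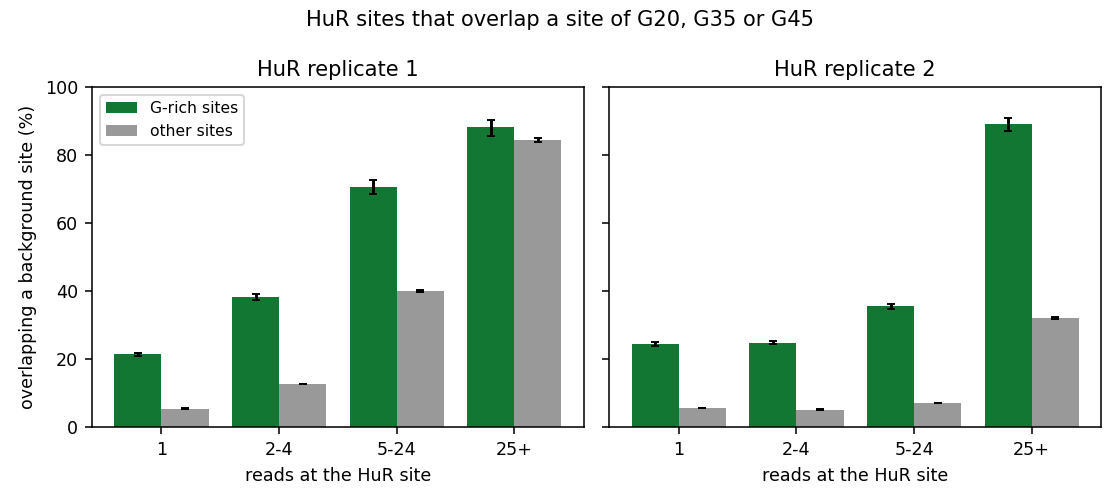
Bars give the percent of HuR sites that overlapped a site of G20, G35 or G45 on the same strand, by the reads at the HuR site, for G-rich (green) and other sites (gray), with 95% Wilson intervals. In replicate 2 the green bars rise from 24.4% at 1 read to 89.2% at 25 or more reads, above gray in every class.

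Over all read counts, G-rich sites recurred less between HuR replicates than other sites did, but not at the most-read sites. In replicate 1, 26.4% (26.0 to 26.8) of G-rich and 34.6% (34.5 to 34.6) of other sites overlapped a site of replicate 2. From replicate 2 to replicate 1, the shares were 14.4% and 19.8%. At sites of 5 to 24 reads they were 50.6% and 71.5% from replicate 1 and 20.3% and 23.5% from replicate 2. At 25 or more reads, 69.8% (66.5 to 72.9) of G-rich and 68.2% (67.4 to 68.9) of other sites recurred from replicate 1, and 78.5% (75.6 to 81.1) and 73.0% (72.8 to 73.2) from replicate 2. Single-read sites of replicate 2 were close as well, at 10.5% and 10.3%. Among G-rich sites of replicate 1, 52.9% of those with background and 16.4% of those without it recurred in replicate 2, and from replicate 2 the shares were 27.5% and 9.15%. These shares pool all read counts, and both background overlap and recurrence rose with reads, so the part of reads in them was not separated. They were not taken for the other sites. With 3 T and a single read, G-rich HuR sites with background were converted in 58.7% and 66.2%, and those without it in 38.2% and 56.5%, in replicates 1 and 2.

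Total offers a view of whether a stretch was seen without immunoprecipitation. Sites overlapping a Total site made up 21.0%, 16.6% and 16.2% of G-rich sites in G20, G35 and G45, and 11.7% and 13.0% in HuR. They made up 30.3%, 19.9%, 17.5%, 20.9% and 18.0% of the other sites in the same order, so the 2 kinds were close in G45. For reads, 58.9%, 41.2% and 44.2% of slice reads at G-rich sites and 41.9% and 32.5% of HuR reads were at such sites. Of the reads at other sites, these shares were 96.3%, 66.3%, 66.2%, 49.0% and 38.5%. From the side of Total, 38.8% (38.3 to 39.3) of its G-rich sites overlapped a G20 site, compared to 7.16% (7.13 to 7.19) of its other sites.

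The sequences given at the start show how single stretches varied. Each is that of the G-rich site with the most reads at the stretch, which came from a slice or HuR replicate 2. Reads and events were counted at any overlapping site, whether or not it met the rule. None of the sequences came from Total, whose reads here were mostly at sites that did not meet the rule. The same holds for the G20 reads at RPLP1, OAZ1, RPS19, MAZ, MBD3, UBA1 and THRAP3. It also holds for the HuR replicate 2 reads at MAZ, THRAP3 and STK35. Events of sites that did not meet the rule can lie outside the printed bases. At RPLP1, a protein of the ribosomal stalk, sites overlapping the stretch held 357 reads in G20, 8 in G35, 9 in G45, 0 and 5 in HuR and 986 in Total. At RPS19, a protein of the small ribosomal subunit, they held 279, 6, 2, 0, 1 and 330 reads in the same order. Both genes have processed pseudogenes, which makes the assignment of short reads uncertain. At KDM1A, a histone demethylase, the counts were 35, 1, 12, 6, 0 and 226, with no conversion event in any library.

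MAZ, a zinc finger transcription factor, had 249, 8, 3, 4, 304 and 518 reads, with 21 events in G20 and 324 in HuR replicate 2. OAZ1, which controls polyamine levels, had 284, 12, 2, 4, 36 and 445 reads, and MBD3, a subunit of a chromatin remodeling complex, had 63, 1, 7, 0, 1 and 433. Since the stretches were chosen for their reads in Total, their level there was set by the choice. Scaled to the reads of the library (RPM), RPLP1, OAZ1, RPS19 and MAZ stood at 6.44 to 9.24 RPM in G20 and at 0.265 to 1.94 RPM in G35 and G45. Most of these G20 reads were at sites that did not meet the rule. MBD3 stood at 1.63, 0.162 and 0.928 RPM in G20, G35 and G45, whereas KDM1A was higher in G45 (1.59 RPM, from 12 reads) than in G20 (0.906 RPM). In HuR, MAZ reached 9.47 RPM in replicate 2, and the other values were at most 1.12 RPM.

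Of the stretches with 4 G runs, THRAP3, a factor linked to RNA splicing, had 26, 10, 1, 9, 482 and 15 reads. Its sequence came from G45, so the 482 reads in HuR replicate 2 were mostly at sites that did not meet the rule. Those 482 reads carried 441 events, whereas replicate 1 had 9 reads with 5 events. STK35, a protein kinase, also was highest in HuR replicate 2, with 74 reads and 88 events, and had 2, 1, 7, 1 and 13 reads in the other libraries. Its sequence came from G45 too, so most of the 74 reads were at sites that did not meet the rule. UBA1, the ubiquitin-activating enzyme, had 49, 11, 5, 1, 4 and 21 reads, and MDK, a growth factor, had 16, 1, 3, 0, 4 and 44. THRAP3 stood at 0.945 RPM in HuR replicate 1 and 15 RPM in replicate 2, so the replicates differed there beyond depth.

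The G-rich sites with the most reads in the slices or HuR had few reads in Total. The stretches printed above were chosen for their reads in Total, so a contrast with them in Total was set by that choice. It does not show that the sites are of another kind. G-rich sites with the most reads in Total itself are given further below. Reads at sites overlapping the position are given. A stretch in an intron of CFAP54, chr12:97063351-97063370 (+), had 5913, 26024 and 12796 reads in G20, G35 and G45, 1597 and 7845 in HuR and 0 in Total. Conversion was near complete at its single converted location, with 26017 events for the 26024 reads of G35. A stretch in an intron of the lncRNA ENSG00000285679, chrX:7929945-7929964 (+), had 7240, 23684, 18306, 3402 and 11414 reads and 4 in Total. No event was recorded in the slices despite 3 T in the site.

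The stretch in an intron of HHAT, an acyltransferase of Hedgehog proteins, at chr1:210739236-210739259 (+), had 12064, 17892, 22042, 1531, 23654 and 132 reads in the same order, with about 1 event per read. The stretch in the 3'UTR of NPFFR1, a neuropeptide receptor, at chr10:72013102-72013121 (-), had 4538, 18755, 12027, 3961, 7980 and 8 reads, with 43 events in G35. An intergenic stretch at chr1:240912286-240912305 (+) had 4544, 16642, 11576, 2157, 7585 and 5 reads. In G35 and G45 the sites covering the HHAT and NPFFR1 stretches did not meet the rule, since site boundaries differ between libraries, so these reads are not among those at G-rich sites. The stretches had between 1531 and 26024 reads in slices and HuR and at most 132 in Total. Those of ENSG00000285679, NPFFR1 and chromosome 1 at 240912286, each of 20 nt, shared runs of 14 to 16 nt with each other although they lie on different chromosomes. Whether reads arose from these positions was not tested, and the sequences, which are not shown, were not compared with ribosomal or bacterial RNA. The gene names here thus give the mapped position and not the source of the RNA.

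Other stretches were unevenly spread over the libraries. An intergenic stretch at chr2:133038872-133038903 (-) had 61922 reads in G20, 603 in G35, 1600 in G45, 18 and 821 in HuR and 18 in Total, and alone held 15.8% of the G-rich reads of G20. Scaled to depth, it was at 1602 RPM in G20 and 212 RPM in G45, and its G35 site did not meet the rule. A stretch in an intron of MRPL23, a mitochondrial ribosomal protein gene, had 5042 reads in HuR replicate 1 and 7, 34, 32, 1 and 5 in G20, G35, G45, HuR replicate 2 and Total, without any event. In Total, intergenic stretches on chromosome 5 at chr5:175790985-175791009 (-) and chr5:173043873-173043893 (-) had 8691 and 1909 reads, and in G20 1622 and 2969. The first was at 242 RPM in Total and 42.0 RPM in G20, and the second at 53.1 and 76.8 RPM. An intron of the lncRNA PTCSC3 had 1347 reads in Total, 8 in G20 and 0 elsewhere.

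Genes were counted where a G-rich site lay on their own strand. Of 20149 protein-coding genes, 57.9% had such a site in G20, 29.1% in G35, 31.6% in G45, 45.7% and 57.0% in the HuR replicates and 47.4% in Total. A gene with a G-rich site held a median of 3 in G20, 1 in G35 and G45 and 2 in the other libraries.

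Genes with the most reads at G-rich sites mostly owed them to a single stretch, and the source of these reads was not tested. In G20 these were HHAT, ENSG00000285679 and NAA38, an auxiliary subunit of an N-terminal acetyltransferase, with 12073, 7240 and 6886 reads. CFAP54, ENSG00000285679 and BAHCC1 led in G35 and G45, and BAHCC1 had 2362, 7577, 5783, 1479, 4574 and 29 reads at G-rich sites over the libraries. MRPL23, NPFFR1 and ENSG00000285679 led in HuR replicate 1, and HHAT, ENSG00000285679 and NPFFR1 in replicate 2. In Total, PTCSC3, ENSG00000284632 and GNAI1, a G protein subunit, led with 1347, 955 and 529 reads.

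By number of G-rich sites, the genes named next spanned 222932 to 1195211 bp, except for DAZAP1 with 28119 bp. CAMTA1, a transcription activator gene of 984253 bp, had 106 G-rich sites in G20, or 21.4% of its 496 sites, and 99 of 2659 sites (3.72%) in HuR replicate 2. TBC1D22A had 75 of 302 sites in G20 (24.8%) and 40 of 1084 in Total (3.69%). MSI2, an RNA-binding protein, had 59, 15, 5, 41, 84 and 34 G-rich sites, which were 16.1%, 16.3%, 7.35%, 3.39%, 5.51% and 2.34% of its sites.

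In HuR replicate 1 ZNF536 led with 46 G-rich sites of 1199, followed by AUTS2 with 45 of 3544, and AUTS2 had 86 of 5448 in replicate 2. DAZAP1, an RNA-binding protein, had 14 G-rich sites in G35, GSE1 and ZFHX3 each had 15 in G45, and ANKRD11 had 14 there. GSE1 also had 40 in Total. In these genes the G-rich share was higher in G20 than in Total throughout, as it was over all sites.

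Genes known for a G-quadruplex in their RNA were taken as a list of 16, of which 15 are protein-coding and TERC, the telomerase RNA, is not. Of the 15 protein-coding members, 14 had a G-rich site in G20, 8 in G35, 12 in G45, 13 in each HuR replicate and 10 in Total, beside the shares of all protein-coding genes given above. The genes differ in length and expression, and nothing is read from these counts about the list.

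VEGFA, the angiogenic growth factor, had 14 of 72 sites G-rich in G20 (19.4%), 4 of 12 in G35, 4 of 16 in G45, 5 of 38 and 16 of 72 in HuR and 4 of 109 in Total (3.67%). APP, the amyloid precursor, had 12, 2, 2, 9, 19 and 5 G-rich sites, and BCL2, which blocks apoptosis, had 9, 0, 1, 7, 16 and 8. MAP1B, a microtubule-associated protein, had 6, 1, 1, 2, 10 and 3. In these genes most G-rich sites had few reads, for example 55 reads over the 14 VEGFA sites in G20 and 5 reads over the 5 in HuR replicate 1.

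TERF2, PIM1, FMR1, CCND3, FGF2 and ADAM10 had between 2 and 5 G-rich sites in G20 and between 0 and 5 in the other libraries. ESR1, NRAS, IGF2, MMP16 and ZIC1 had between 0 and 6 in any library, and ZIC1 had none in G20. NRAS had 2 G-rich sites in G20 and 1 in G45 and none in G35, HuR or Total. TERC had 1, 0, 1, 2, 2 and 0 G-rich sites, with 18 reads in G20.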

How the data were processed

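Per the labels and the study's methods, the authors sequenced reads of 50 bp, removed adapters, mapped to hg19 with Bowtie, and used PARalyzer on uniquely mapping reads. They deposited whole-number counts per site of reads, conversion locations and conversion events, without normalization. Per library, 1 table of groups (any read) and 1 of clusters were used here. Removal of duplicates is not stated.

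Sites at least 15 nt long and 50% G were kept, and all nuclear ones matched GRCh37. Regions came from GENCODE release 44 on GRCh37, at the site midpoint on its own strand, in the order coding, 3'UTR, 5'UTR, noncoding exon, intron, intergenic. Overlap meant 1 bp on the same strand. Other sites were all further sites of at least 15 nt. Matching on length and T used cells with at least 20 other sites. Total reads were 38644636 (G20), 6187300 (G35), 7539669 (G45), 9525265 and 32111810 (HuR) and 35924998 (Total), and 3 reads correspond to between 0.0776 and 0.485 RPM. Groups came from sample titles. No p-values were computed, since each slice and Total is 1 library and only HuR has replicates. The labels do not say that HuR replicates were separate cultures.

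Named were, per library, the 3 genes with the most G-rich reads and the 3 with the most G-rich sites, the 3 G-rich sites with the most reads, and a list of 16 genes. Some genes that this rule names are not reported here. Members and lists were chosen with earlier results of these data known. Alternatives changed G content, length, depth, strand, overlap and replicates. Python 3.11.15 with numpy 2.4.6, pandas 2.3.3, scipy 1.17.1 and matplotlib 3.10.9 was used, and the overlap, intervals and matching were tested on simulated data.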

Additional observations from a re-analysis of the deposited data

Results flagged for a closer look

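The difference in converted share between single-read G-rich sites and other sites of matched length and T number had opposite signs in the groups. It was 3.10 and 9.08 points in HuR replicates 1 and 2, and -3.54, -6.65, -7.02 and -1.24 points in G20, G35, G45 and Total, each a single library. The difference between the groups was not tested.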

How the results depend on the processing

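No paired analysis was possible because only HuR has more than 1 replicate. In the order G20, G35, G45, HuR mean and Total, the G-rich share of sites was 27.5%, 21.7%, 18.9%, 6.78% and 4.75% at a G content of at least 40%, and 2.39%, 1.48%, 1.04%, 0.286% and 0.154% at 60%. With only G-rich sites of at least 20 nt counted, against all sites of any length, it was 8.42%, 2.92%, 1.97%, 0.968% and 0.829%. Among sites of 20 to 29 nt alone it was 13.8%, 7.77%, 6.12%, 1.56% and 1.31%, and at 5 or more reads 10.4%, 5.94%, 4.42%, 1.90% and 0.644%. Thinned to equal reads, it was 10.7% in G20, 6.21% in G45, 1.74% in HuR and 1.11% in Total. Over sites of 15 nt or more it was 8.08% in G35 and 1.98% in HuR. The slices stayed above HuR and Total in these settings. Leaving out a HuR replicate gave 1.92% and 1.94%.

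The G-rich share of reads without the 10 sites with the most reads was 4.32%, 6.38%, 4.39% and 0.717% in G20, G35, G45 and Total. Without the mitochondrial genome it was 1.03% in G20 and 0.311% in Total. At sites overlapping a Total site it was 0.624%, 3.25% and 2.34% in the slices and 1.84% in HuR (mean). Leaving out a HuR replicate gave 1.40% and 2.84%. The single-read converted share with exactly 3 T was 18.6% in G20 and 38.6% in G45, and as events per 100 reads it was 51.8, 47.6, 44.1 and 16.0 in G20, G35, G45 and Total. G-rich minus other sites reversed in HuR, to 6.37 and 18.2 points in replicates 1 and 2 with exactly 3 T, and to 3.10 and 9.08 points when matched. G-rich sites hold fewer T, and the further cause was not tested. Thinning, the class of 20 to 29 nt, the overlap with Total and the matching were chosen after seeing the data.

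At 5 or more reads, in the order G20, G35, G45 and Total, intergenic G-rich sites were 22.1%, 46.3%, 51.2% and 14.6%, intronic 32.9%, 38.1%, 34.5% and 17.6%, and 5'UTR 15.5%, 3.07%, 3.03% and 17.0%. With an overlap of 50% of the site, 19.6% and 21.5% of G-rich sites in HuR replicates 1 and 2, 35.3% in G35, 34.5% in G45 and 35.5% in Total overlapped G20, and 14.8% in G20 overlapped Total. On either strand these were 22.2%, 24.5%, 37.7%, 36.7%, 39.9% and 25.2%. With 2 or more reads, protein-coding genes with a G-rich site in HuR replicate 1 fell from 9210 to 5930. The cause of these shifts was not tested.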

Other observations

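Clusters, which the peak caller reports within sites that have enough reads and conversions, gave a further readout of G-rich sites. Clusters inside G-rich sites made up 7.24% of clusters in G20, 4.69% in G35, 3.24% in G45, 0.541% and 1.03% in HuR replicates 1 and 2 and 0.274% in Total. The median share of T observations that were converted, taken over clusters, was 25% at G-rich and 18.2% at other sites in G35, and 25% and 16.9% in G45. In HuR it was 20.0% against 11.1% in replicate 1 and 24.6% against 11.1% in replicate 2, and in Total 6.58% against 4.00%. In G20 the median was lower at G-rich sites, 10.7% against 13.4%. Pooled over all T observations of the clusters, the share was higher at G-rich sites in every library, in G20 with 29.2% against 3.93%. Clusters are chosen for conversions and G-rich sites hold fewer T, so these values describe clusters and not sites, and the difference was not tested.

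Repeat names that the deposited annotation gives to sites differed as well. Simple repeats and low-complexity stretches were named at 2.17% and 3.00% of G-rich sites in G20, against 0.330% and 0.488% of other sites. In Total, whose names come from another kind of annotation column and cannot be set beside those of G20, they were named at 1.46% and 2.15%, against 0.315% and 0.438%. The most frequent simple repeat at G-rich sites of G20 was CGG, with 424 sites. LINE elements were named at 3.20% of G-rich and 4.12% of other sites in G20, and at 2.02% and 6.88% in Total.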
